A study of Mus musculus with 17 samples.

Results

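The positions of RNA polymerase II, recovered by chromatin immunoprecipitation and sequenced, were compared in N4bp1 knockout (KO) mouse bone marrow-derived macrophages that had received R837 for 2 h and in untreated KO macrophages. Both groups held 2 libraries, 4 of the 16 libraries of the study, and they were taken by genotype, treatment and time from the sample titles. All 4 libraries shared the N4bp1 KO genotype, and the comparison therefore shows the response to R837 in its absence. The deleted part of N4bp1, the strain and the method of deletion are not given in the labels. Separate mice or cultures are not named for the replicates either, and every p-value therefore reflects the spread between libraries alone, which can be technical. The study also held wild-type (WT) macrophages under the same treatments and later times, all of which entered the fit and its estimate of the spread, and WT at 2 h and WT untreated are compared with KO at the end.

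R837 (imiquimod) is a small-molecule agonist of TLR7, an endosomal receptor for single-stranded RNA that signals through MyD88 and IRAK kinases to the IkB kinases. These kinases release NF-kB dimers to the nucleus, where they bind the promoters and enhancers of cytokine, chemokine and feedback genes, and polymerase that had paused near a gene start can move into productive elongation. N4BP1 restrains inflammatory cytokine output in macrophages and is cleaved by caspase-8.

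Each library was deposited as a list of polymerase summits, single positions at which the polymerase signal peaks, with a score. Every gene was given the rank of its best summit within the gene and 1 kb on each side, after all lists had been shortened to the best 8394 summits, the length of the shortest list of the study. The rank score was log2 of the list length plus 1, divided by that rank, so that it ran up to 13.04 for the top summit of a list and was 0 for a gene with none. It is a place within a list, and a lower rank score can mean less polymerase at a gene or more at others, which cannot be told apart here. Of 21887 protein-coding genes, 8481 were present in 2 or more of the 16 lists after shortening and were tested with limma.

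The R837 libraries held 13825 and 9402 summits, and the untreated libraries 21439 and 22701. The difference in mean log2 length was −0.95, with p = 0.333 in a two-sided exact permutation test, the smallest p that 2 libraries against 2 can give, and the read depth behind each list is unknown. After shortening, the R837 lists touched 4984 and 3282 genes, and the untreated lists 6443 and 6714. R837 replicate 1 stood apart from replicate 2: on average over both lists, 56.3% of its summits had a partner within 500 bp in replicate 2, and 49.1% and 49.7% had one in the untreated lists, while for R837 replicate 2 the untreated lists gave 34.1% and 33.6%. Of the score values of R837 replicate 2, 96.2% also occurred in the list of replicate 2 of KO at 4 h and 94.5% and 95.2% in the WT lists at 4 h, although only 0.223% to 0.330% of positions were identical. R837 replicate 1 shared 94.9% of its values with WT 6 h replicate 1, and untreated replicate 2 shared 94.5% with KO 6 h replicate 1, while R837 replicate 1 and untreated replicate 2 shared 42.4%, and the cause was not tested. Of 10 macrophage markers, 8 were in both R837 lists and 7 in both untreated lists, with summed rank scores of 37.5 to 41.4 after R837 and 38.2 to 41.3 in untreated cells. All 9 markers of T and NK cells, 8 of neutrophils, 6 of mast cells and basophils, 7 of erythroid cells and 7 of fibroblasts were absent from the 4 lists. The B cell adaptor gene Blnk was the 1 of 7 B cell markers found, and Ccr9 and Xcr1 were the 2 of 7 dendritic cell markers found, neither of which passed the test described next.

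After 2 h of R837, genes of NF-kB inhibitors, chemokines and inflammatory effectors held many of the largest rises of KO macrophages, and lysosomal and lipid-handling genes several of the largest falls. The top of the R837 lists also held summits in no gene region and at Fth1 and Actb, which were among the best in untreated cells too. In limma's fit, 223 genes rose, 2.63% of those tested, and 825 fell, 9.73% of those tested. These calls take their spread from all 16 libraries: 669 genes passed when the 8 untreated and 2 h libraries alone were fitted, and 0 when only the 4 KO libraries were, where 1868 had an unadjusted p under 0.05. Of the rising genes, 89 had no summit in either untreated list, and of the falling genes, 452 had none in either R837 list. The median change over all genes tested was −0.33, and R837 lists spread their summits over fewer genes. When every gene kept 1 rank among genes and not among summits, 5235 genes were tested, the median change was 0, 223 genes rose (4.26%) and 257 fell (4.91%), 480 in all (9.17%), of which 167 rises and 247 falls were shared with the summit-based score. With the lists as deposited, 154 genes rose and 2803 fell. Both R837 libraries lay above both untreated libraries for 760 genes (8.96%) and below both for 3218 (37.9%). Without R837 replicate 1, 193 rose and 527 fell, and without R837 replicate 2, 224 rose and 351 fell.

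**Figure D1:**
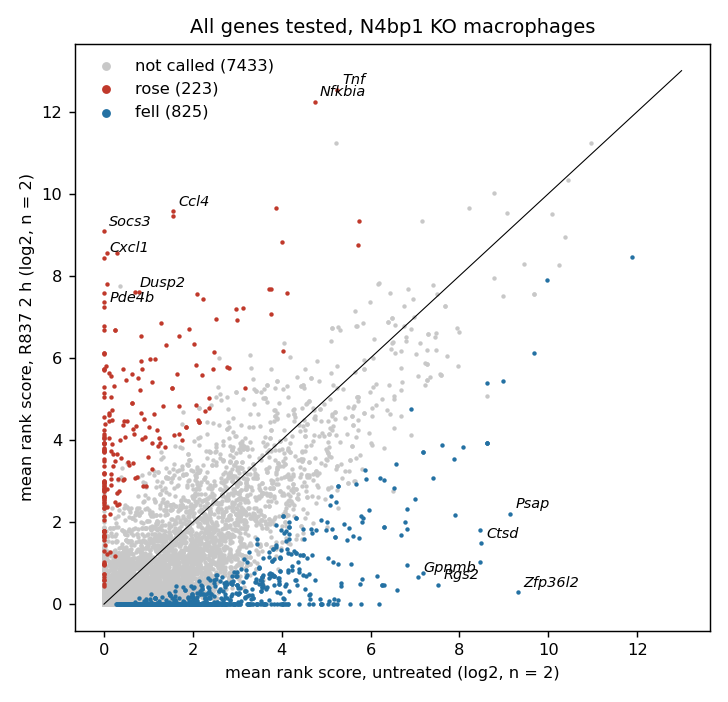
Mean rank score of each of the 8481 genes tested, KO with R837 for 2 h on the vertical axis and KO untreated on the horizontal axis (log2, n = 2 libraries each), with the diagonal of equal score. Genes that rose (223, red) gather near the left edge, where untreated libraries had no summit or one of low rank, and genes that fell (825, blue) gather along the lower edge.

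Nfkbia and Tnf held the top summit of 1 R837 list each and were within the first 3 ranks of both. Nfkbia encodes IkB-alpha, the inhibitor that retains NF-kB in the cytoplasm and is itself an NF-kB target. Its best summit stood at ranks 1 and 3 in R837 libraries, against ranks 213 and 464 in untreated libraries. The mean rank score was 12.2 ± 1.12 after R837 and 4.74 ± 0.79 in untreated cells (SD, n = 2 each), a change of 7.50 ± 0.85 (SE, log2, adjusted p = 1.40e-04). Tnf encodes the cytokine TNF, and its best summit stood at ranks 2 and 1 after R837, against ranks 282 and 172 in untreated cells. The change for Tnf was 7.28 ± 0.74 (SE, log2, adjusted p = 6.58e-05), with mean scores of 12.5 ± 0.71 after R837 and 5.25 ± 0.50 in untreated cells. For both genes the R837 libraries lay far above the untreated ones without overlap, but the choice of genes among the largest rises required that lack of overlap. The R837 libraries lay above both untreated libraries for 8.96% of all genes tested. In untreated cells Tnf and Nfkbia already carried polymerase near the start. The best Tnf summit lay 69 and 68 bp and the best Nfkbia summit 118 and 146 bp downstream of it. After R837 the best summit of replicate 1 remained near the start, at 161 bp for Tnf and 243 bp for Nfkbia. That of replicate 2 lay past the 3' end of the gene, 2995 and 4234 bp from the start. Replicate 2 nevertheless also held a summit within 1 kb of the start of both genes. For Nfkbia it stood at rank 4, at position 55492411, against 55492404 for the rank 1 summit of replicate 1.

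Of the other 13 genes among the 15 largest rises, 6 had no summit in either shortened untreated list: Socs3, Cxcl1, Cxcl2, Ccl5, Tnfaip3 and Pde4b. Socs3, an inhibitor of cytokine receptor signalling, showed the largest rise, with ranks 14 and 17 after R837 and no summit in either untreated list. The change was 9.09 ± 0.64 (SE, log2, adjusted p = 8.15e-06), and the best summit lay 233 bp past the 3' end of the gene in replicate 1. Cxcl1, a neutrophil-attracting chemokine, stood at ranks 29 and 20 after R837, with none in untreated libraries, a change of 8.45 ± 0.72 (adjusted p = 1.83e-05). Its neighbour Cxcl2, which acts on the same receptor, stood at ranks 99 and 26 after R837 and was likewise absent from untreated lists, a change of 7.37 ± 0.78. Ccl5, a chemokine for T cells and monocytes, stood at ranks 66 and 29 after R837 and was in neither untreated list. Tnfaip3, which encodes the ubiquitin-editing NF-kB inhibitor A20, stood at ranks 78 and 74 after R837 and was in neither untreated list, a change of 6.79 ± 0.62.

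The chemokine genes Ccl3 and Ccl4 lie side by side, and most of their best summits counted for both. Ccl4 stood at ranks 15 and 8 after R837, against 5140 and 1592 in untreated cells, a change of 8.03 ± 0.81, and Ccl3 changed by 7.90 ± 0.82. The adhesion molecule gene Icam1 shared its best R837 summit with the neighbouring Icam4, at ranks 20 and 25, against ranks 5898 and 7983 for Icam1 in untreated cells. That summit lay 13757 and 13765 bp from the start of Icam1 after R837, past its 3' end, while the untreated summits lay 68 and 20 bp from it, so the rises of Icam1 (8.26 ± 0.72) and Icam4 (8.48 ± 0.57) rest on the same positions and cannot be assigned to 1 of the genes. Ehd1, which encodes a membrane-trafficking ATPase, stood at ranks 41 and 34 after R837 and at 7730 in 1 of the untreated lists. Pde4b, a phosphodiesterase that degrades cyclic AMP, stood at ranks 97 and 32 after R837 and was in neither untreated list, a change of 7.24 ± 0.76. Dusp2, a phosphatase of MAP kinases, stood at ranks 35 and 53 after R837, against 4266 and 6368 in untreated cells, a change of 6.92 ± 1.46 (adjusted p = 0.00742) that did not pass without R837 replicate 1 or without untreated replicate 2.

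**Figure D2:**
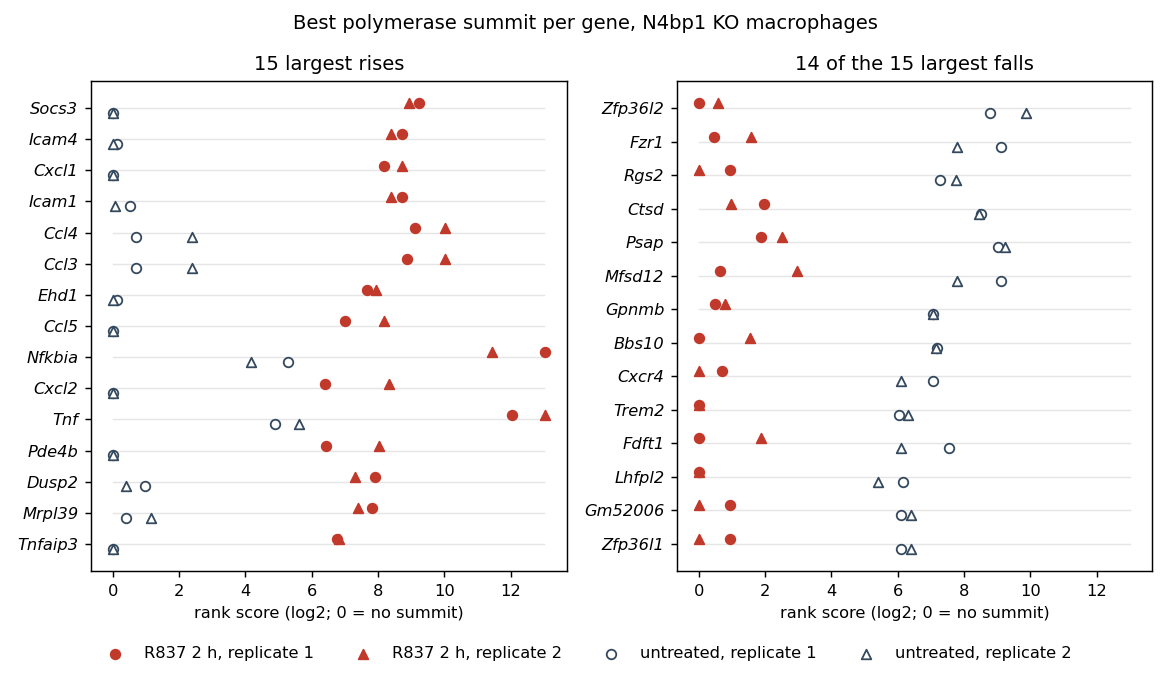
Rank score (log2, 0 where no summit was listed) of the 15 largest rises and 14 of the 15 largest falls in each KO library, R837 2 h in red and untreated in open symbols, with circles for replicate 1 and triangles for replicate 2. The R837 and untreated libraries do not overlap for any gene shown, which the choice of genes required. Nfkbia and Tnf are the rising genes with untreated scores above 4.

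The 250 bases before the start of 6 rising genes are printed because polymerase summits of both R837 libraries lay within 1 kb of these starts. The intended choice, summits of both R837 libraries inside the listed promoter window of 300 bases, was met by none of the 15 largest rises, so the first 5 genes in order of change that met the wider distance were taken, with Cxcl2 beside its neighbour Cxcl1, after the values were seen. The sequences are from RefSeq (GRCm38.p6), run 5′ to 3′ in the direction of transcription and end at the base before the start, and capitals mark matches to the NF-kB consensus (the kappaB motif) on either strand.
Icam4, chr9:21029182-21029431, plus strand: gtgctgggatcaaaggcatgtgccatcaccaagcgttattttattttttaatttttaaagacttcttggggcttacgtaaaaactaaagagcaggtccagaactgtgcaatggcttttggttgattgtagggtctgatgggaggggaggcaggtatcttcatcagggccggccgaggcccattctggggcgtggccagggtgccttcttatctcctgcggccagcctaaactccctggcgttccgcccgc
Cxcl1, chr5:90890995-90891244, plus strand: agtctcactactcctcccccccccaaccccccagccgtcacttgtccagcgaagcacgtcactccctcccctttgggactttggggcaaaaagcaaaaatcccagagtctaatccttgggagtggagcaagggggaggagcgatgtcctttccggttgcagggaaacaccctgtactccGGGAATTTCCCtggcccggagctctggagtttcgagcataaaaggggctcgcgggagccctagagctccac
Icam1, chr9:21015690-21015939, plus strand: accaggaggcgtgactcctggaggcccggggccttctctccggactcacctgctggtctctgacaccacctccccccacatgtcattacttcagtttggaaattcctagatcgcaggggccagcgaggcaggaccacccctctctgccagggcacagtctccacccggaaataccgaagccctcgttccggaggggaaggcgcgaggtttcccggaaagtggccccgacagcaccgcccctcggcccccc
Ccl3, chr11:83649379-83649628, minus strand: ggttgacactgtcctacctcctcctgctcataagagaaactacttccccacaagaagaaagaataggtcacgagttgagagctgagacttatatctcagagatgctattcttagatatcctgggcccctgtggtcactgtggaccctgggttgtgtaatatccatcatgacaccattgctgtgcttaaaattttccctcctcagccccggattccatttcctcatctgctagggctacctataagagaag
Nfkbia, chr12:55492648-55492897, minus strand: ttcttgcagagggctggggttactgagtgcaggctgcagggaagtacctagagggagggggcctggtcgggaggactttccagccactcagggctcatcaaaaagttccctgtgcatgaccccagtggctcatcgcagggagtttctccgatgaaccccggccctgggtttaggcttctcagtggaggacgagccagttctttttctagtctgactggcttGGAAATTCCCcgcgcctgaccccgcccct
Cxcl2, chr5:90903649-90903898, plus strand: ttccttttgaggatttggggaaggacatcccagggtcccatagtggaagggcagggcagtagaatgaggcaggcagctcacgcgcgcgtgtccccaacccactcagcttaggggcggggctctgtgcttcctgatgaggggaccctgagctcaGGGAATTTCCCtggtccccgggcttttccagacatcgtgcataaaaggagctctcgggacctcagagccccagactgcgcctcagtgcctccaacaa

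Cxcl1 and Cxcl2 each held 2 overlapping kappaB matches on opposite strands, first bases 71 and 70 before the start of Cxcl1 and 97 and 96 before that of Cxcl2. Nfkbia held 1 match, 29 bases before the start, and the windows of Icam1, Icam4 and Ccl3 held none. The kappaB pattern searched was GGGRNNYYCC, where R is A or G, Y is C or T and N is any base. Sites that depart from it were not searched, so a window without a match is not shown to lack them. None of the 6 windows held the TATA motif TATAAA or the AP-1 motif TGANTCA on either strand. Over genes with a listed start, a kappaB match was present in 38 of 181 genes that rose (21%), in 71 of 683 that fell (10.4%), in 723 of 6975 tested (10.4%) and in 1588 of all 17492 (9.08%). TATAAA was present in 10.5% of the genes that rose, 11% of those that fell, 7.87% of those tested and 13.7% of all 17492. TGANTCA was present in 9.39% of the genes that rose, 5.42% of those that fell, 5.09% of those tested and 7.19% of all 17492. A match in these windows is a description of sequence and shows no binding.

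The best R837 summit of Mrpl39, a mitochondrial ribosomal protein gene, lay outside that gene, on the side of the microRNA gene Mir155. In replicate 1 it was 177 bp from Mrpl39 and 3900 bp from Mir155. The Mrpl39 region stood at ranks 37 and 50 after R837, against 6305 and 3755 in untreated cells, a change of 6.82 ± 0.98. The R837 summits lay 17140 and 17157 bp from the Mrpl39 start and outside the gene, and the untreated ones 57 and 19 bp from that start. Counted within the gene span alone, Mrpl39 changed by −0.094. Mir155 (chr16:84714140-84714204, plus strand) had 3 and 3 summits within 5 kb in the R837 lists, and none in the untreated lists, shortened or as deposited. The summits of R837 replicate 1 stood at ranks 37, 630 and 669 and lay 3900, 2516 and 112 bp from the hairpin, in that order. Their partners in replicate 2 stood at ranks 50, 704 and 871. MicroRNA genes were not among the genes tested, and Mir155 was singled out after its values were seen. Its main product is a microRNA of activated macrophages and lymphocytes that targets, among others, the mRNA of SOCS1. The mature sequence is shown from RefSeq (GRCm38.p6) with its seed, bases 2 to 8, in capitals.
mmu-miR-155-5p: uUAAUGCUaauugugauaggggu

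Most of the genes that encode NF-kB subunits and inhibitors of the pathway rose. Of 5 NF-kB subunit genes, 3 rose and none fell, against 2.63% and 9.73% of all genes tested. The median change was 2.95 against −0.33 over all genes tested. Nfkb1, which encodes p105 and p50, stood at ranks 324 and 601 after R837 and was in neither untreated list, a change of 4.25 ± 0.61 (adjusted p = 8.07e-04). Nfkb2, which encodes p100 and p52, stood at ranks 53 and 60 after R837, against 1070 and 853 in untreated cells, a change of 4.08 ± 0.80. Relb, the partner of p52, changed by 2.95 ± 0.64, a call that was lost without R837 replicate 1, without untreated replicate 1 and with the lists as deposited. The other two did not pass: Rel changed by 1.23 (adjusted p = 0.358) and Rela, which encodes p65, by −1.50 (adjusted p = 0.317).

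Of 14 genes of NF-kB inhibitors, 8 rose and none fell, against 2.63% and 9.73% of all genes tested, with a median change of 3.75. Besides Nfkbia and Tnfaip3 these were Tnip3 (6.11 ± 0.86), which encodes an A20-binding protein, the nuclear IkB proteins Nfkbiz (5.70 ± 0.93) and Bcl3 (5.09 ± 0.57), Nfkbie (4.94 ± 0.68), Tnip1 (4.32 ± 0.62) and N4bp1 itself. Tnip3 stood at ranks 208 and 71 after R837 and was in neither untreated list, and Bcl3 stood at ranks 152 and 126 after R837, against 4654 and 4775 in untreated cells. In each of these the R837 libraries ranked ahead of both untreated libraries, as they did for 8.96% of all genes tested. The best Nfkbie summits also lay in the region of Slc35b2.

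N4bp1 lies on chromosome 8 (86841136 to 86885296, GRCm38). The KO libraries held N4bp1 summits at ranks 1588 and 537 after R837, 547 and 658 bp downstream of the start, and none in the shortened untreated lists, where the deposited ranks were 15707 and 16337. The change was 3.18 ± 0.66 (SE, log2, adjusted p = 0.00688). It did not pass without R837 replicate 2, with 1 rank per gene, or when only the untreated and 2 h libraries were fitted. Polymerase near the start of N4bp1 does not check the KO label, since the deleted part is not named. Tlr7, the receptor of R837, was in neither R837 list and stood at ranks 6208 and 4888 in untreated cells, a change of −0.61 (adjusted p = 0.541).

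Upstream of NF-kB, none of 12 tested sensors and adaptors of the TLR7 pathway passed in either direction, with a median change of −0.35, close to that of all genes. Irak2, an IRAK kinase homologue, changed by 1.76 (adjusted p = 0.0779), and Myd88, the shared adaptor, by 1.71 (adjusted p = 0.115). Of 10 IKK and TAK1 kinase genes, 1 rose and 1 fell, and over both lists the share called was near the 12.4% of all genes. Ikbke, which encodes the IKK-related kinase IKK-epsilon, stood at ranks 311 and 716 after R837 and was in neither untreated list, a change of 4.15 ± 0.63 (adjusted p = 0.00114). Tab1, which encodes an activating partner of TAK1, changed by −3.09 ± 0.74 (adjusted p = 0.0145), a call lost without R837 replicate 2, without untreated replicate 1 and with 1 rank per gene.

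Of 11 genes of the caspase-8 and RIPK death pathway, 3 rose and 1 fell, against 2.63% and 9.73% of all genes tested. The median change of the list was −0.36, close to the −0.33 of all genes. Both R837 libraries lay above both untreated ones for 4 of the 11 (8.96% of all genes) and below both for 4 (37.9% of all genes). The 3 that rose encode inhibitors of that pathway. Cflar encodes c-FLIP, which limits caspase-8 activity, and stood at ranks 86 and 96 after R837, against 2114 and 3258 in untreated cells, a change of 4.85 ± 0.68 (adjusted p = 6.79e-04). Birc3 and Birc2 encode the ubiquitin ligases cIAP2 and cIAP1, which modify RIPK1. Birc3 changed by 4.40 ± 0.64, and Birc2 by 3.16 ± 0.74, the call on Birc2 being lost without R837 replicate 1, without untreated replicate 2 and with the lists as deposited. Fadd, the adaptor of caspase-8, changed by −2.47 (adjusted p = 0.0361), and this call was lost when any 1 of the 4 KO libraries was left out. Casp8 itself changed by −0.39 (adjusted p = 0.823).

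Chemokine genes gave the highest median of all lists. Of 13 tested, 8 rose and none fell, against 2.63% and 9.73% of all genes tested, with a median change of 6.11. Beyond those already described, Ccl7 stood at ranks 147 and 100 after R837 and was in neither untreated list (6.11 ± 0.59), and Ccl2, a monocyte chemokine, stood at ranks 440 and 286 after R837 and was in neither (4.56 ± 0.75). Cxcl16 changed by 3.91 ± 1.04. Ccl9 ranked 67 and 23 after R837, against 6633 and 6540 in untreated cells, but its change of 7.39 ± 2.41 did not pass (adjusted p = 0.0635).

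Of 12 tested inflammatory cytokine genes, 3 rose, against 2.63% of all genes tested, with a median change of 0.30. Besides Tnf these were Tnfsf9, the ligand 4-1BBL (4.06 ± 0.64), and Il27, a subunit of IL-27 (2.14 ± 0.49), whose call was lost without R837 replicate 2 and with 1 rank per gene. Il12b, the p40 subunit of IL-12, ranked 1951 and 794 after R837 and was in neither untreated list, with a change of 2.75 that did not pass (adjusted p = 0.0538). Il1b ranked 5723 and 1947 after R837 and was in neither untreated list (adjusted p = 0.348), and Il6 had no summit in any of the 4 lists, shortened or as deposited.

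Of 19 tested inflammatory enzymes and effectors, 12 rose and none fell, against 2.63% and 9.73% of all genes tested. The median was 3.83. Nlrp3, the sensor of an inflammasome, stood at ranks 84 and 80 after R837 and was in neither untreated list (6.68 ± 0.65). Acod1, which makes itaconate, stood at ranks 166 and 149 after R837 and was in neither (5.74 ± 0.74). The others included the co-stimulatory receptor Cd40 (5.73 ± 0.54), the lectin Clec4e (5.04 ± 0.65) and the mitochondrial superoxide dismutase Sod2 (4.91 ± 0.63). Saa3, an acute-phase protein gene, ranked 1113 and 237 after R837 and was in neither untreated list, with a change of 4.03 ± 2.37 that did not pass.

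Of 23 tested interferon-stimulated genes 1 rose and none fell, with a median change of 0.00, against 12.4% of all genes called in either direction. Of these 23, 11 had no summit in any of the 4 shortened KO lists, so their change could only be 0. Both R837 libraries lay above both untreated ones for 6 (8.96% of all genes) and below both for 0 (37.9% of all genes). The summed rank scores were 15.3 to 17.5 after R837 and 6.34 to 8.05 in untreated cells. The 1 gene that rose was the GTPase gene Gbp5 (1.65 ± 0.50, adjusted p = 0.0474), and its call was lost when any 1 of the 4 KO libraries was left out. Of 17 immediate early transcription factor genes, 1 rose and 2 fell, a share near that of all genes. Ier3 stood at ranks 72 and 89 after R837, against 1469 and 3378 in untreated cells, a change of 4.80 ± 0.88. The AP-1 gene Jun changed by −2.99 (adjusted p = 0.0437), a call lost without any 1 of the 4 libraries, and the stress-induced factor gene Atf3 by −2.74 (adjusted p = 0.0166), a call lost without either R837 library or without untreated replicate 2. Junb was near the top of all 4 lists, at ranks 5 and 13 after R837 and at ranks 14 and 26 in untreated cells.

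The list of cytokine feedback and mRNA decay genes held both the largest rise and the largest fall. Of 13 tested, Socs3 and Dusp2 rose, and Zfp36l2 and Zfp36l1 fell, against 2.63% and 9.73% of all genes tested. Zfp36l1 and Zfp36l2 encode proteins that bind AU-rich elements and promote mRNA decay. Zfp36l2 was absent from R837 replicate 1 and stood at rank 5560 in R837 replicate 2, against ranks 19 and 9 in untreated cells. The mean score was 0.30 ± 0.42 after R837 and 9.33 ± 0.76 in untreated cells (SD, n = 2 each), a change of −9.03 ± 0.73 (SE, log2, adjusted p = 1.46e-05). Zfp36l1 stood at rank 4368 in R837 replicate 1 and was absent from replicate 2, against ranks 122 and 100 in untreated cells, a change of −5.78 ± 0.56, and it shared its summits with the predicted gene Gm52006. The R837 and untreated libraries did not overlap for either gene, which the choice of genes among the largest falls required. The R837 libraries lay below both untreated libraries for 37.9% of all genes tested.

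**Figure D3:**
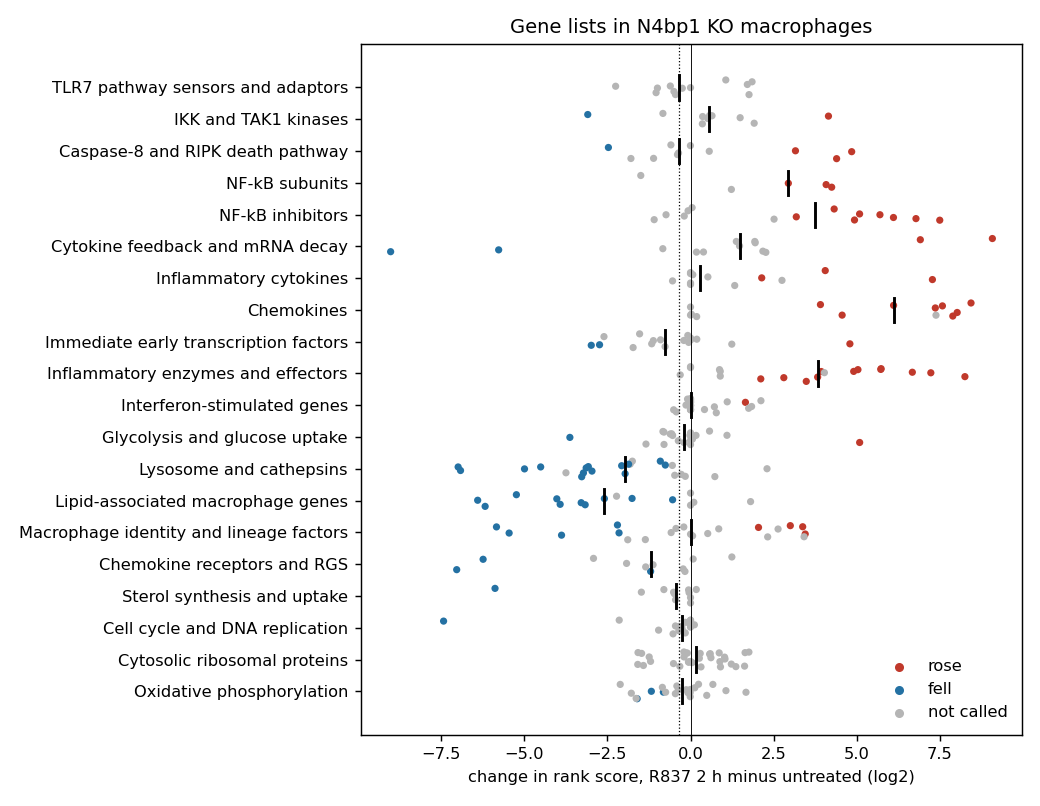
Change in rank score (log2, R837 2 h minus untreated, KO) of the tested members of 20 gene lists, with a dot per gene, red where it rose, blue where it fell and grey where it was not called. The black bar is the median of a list and the dotted line the median of all genes tested, −0.33. Chemokines reach a median of 6.11, and lipid-associated macrophage genes lie at −2.59.

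Lysosomal genes held the most falls of the 20 lists. Of 23 lysosomal and cathepsin genes tested, 14 fell and none rose, against 9.73% and 2.63% of all genes tested. The median change was −1.97 against −0.33 over all genes, and 10 of 18 tested fell with 1 rank per gene, where 1 rose. Ctsd, a lysosomal aspartic protease, stood at ranks 2128 and 4231 after R837, against ranks 23 and 24 in untreated cells. Its mean score was 1.48 ± 0.70 after R837 and 8.48 ± 0.04 in untreated cells (SD, n = 2 each), a change of −7.00 ± 0.53 (adjusted p = 1.10e-05). Psap, the precursor of the saposins that assist sphingolipid breakdown, stood at ranks 2256 and 1466 after R837, against ranks 16 and 14 in untreated cells, a change of −6.92 ± 0.56. The cathepsin genes Ctsl and Ctsb changed by −5.00 ± 0.89 and −4.51 ± 0.76, and the best summits of Ctsb were mostly shared with Fdft1. By the number of summits per gene, which is a different measure, Ctsd, Ctsl and Ctsb did not fall. Ctsd had 3 and 3 summits after R837, against 1 and 1 in untreated cells. Ctsz, another cathepsin gene, ranked 576 and 1556 after R837 and 3838 and 5687 in untreated cells, a change of 2.30 that did not pass (adjusted p = 0.0511).

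Most genes of lipid-handling macrophages fell. Of 15 tested, 10 fell and none rose, against 9.73% and 2.63% of all genes tested, with a median of −2.59. Trem2, a lipid-sensing receptor, was in neither R837 list and stood at ranks 127 and 105 in untreated cells, a change of −6.18 ± 0.50 (adjusted p = 1.46e-05). Gpnmb, a transmembrane glycoprotein of lysosome-rich macrophages, stood at ranks 5945 and 4819 after R837, against 63 and 63 in untreated cells, a change of −6.41 ± 0.53. Lipa, the lysosomal acid lipase, was in neither R837 list and at ranks 317 and 155 in untreated cells (−5.24 ± 0.82), and Plin2, a lipid droplet protein, was in neither and at ranks 372 and 714 in untreated cells (−4.03 ± 0.81). Tyrobp, the signalling adaptor of TREM2, ranked 3529 and 4231 after R837 and 227 and 285 in untreated cells. In each of these genes the R837 libraries ranked behind both untreated libraries, as they did for 37.9% of all genes tested. For Trem2 and Gpnmb the choice among the 15 largest falls required it.

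Macrophage identity genes split. Of 21 tested, 4 rose and 5 fell, against 2.63% and 9.73% of all genes tested, with a median of 0.00. Transcription factor genes were among those that fell: Cebpa changed by −5.46 ± 0.57 and Irf8 by −3.88 ± 0.67. Cebpa stood at rank 3274 in R837 replicate 1 and was absent from replicate 2, against ranks 89 and 159 in untreated cells. Csf1r, the receptor for M-CSF, ranked 298 and 325 after R837 and 70 and 70 in untreated cells, a change of −2.15 (adjusted p = 0.0474). The 4 that rose encode surface proteins: Adgre1, which encodes F4/80, rose by 3.45 ± 0.97, the scavenger receptor gene Msr1 by 3.38 ± 0.68, the co-receptor gene Cd14 by 3.0 ± 0.59 and the Fc receptor gene Fcgr3 by 2.05 ± 0.62. Of these, Csf1r and Fcgr3 were lost when any 1 of the 4 KO libraries was left out, and Adgre1 in 3 of those 4 settings, all but that without R837 replicate 1. Spi1, which encodes the lineage factor PU.1, was high in all 4 lists, at ranks 36 and 46 after R837 and at ranks 64 and 84 in untreated cells.

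Of 11 tested chemokine receptor and RGS genes, 3 fell and none rose, against 9.73% and 2.63% of all genes tested. The median change was −1.20, against −0.33 over all genes. Rgs2, a regulator of G-protein signalling, stood at rank 4345 in R837 replicate 1 and was absent from replicate 2, against ranks 54 and 39 in untreated cells, a change of −7.04 ± 0.49 (adjusted p = 8.15e-06). Cxcr4, the receptor of CXCL12, stood at rank 5183 in R837 replicate 1 and was absent from replicate 2, against ranks 62 and 122 in untreated cells, a change of −6.24 ± 0.63. Rgs10 changed by −1.20, a call lost without either R837 library. Fzr1, a cofactor of the anaphase-promoting complex, fell by 7.44 on the log2 scale, but its untreated summits at ranks 15 and 38 were shared with Mfsd12, so the gene they belong to is uncertain. Bbs10 (−6.41 ± 0.90), a chaperonin-like gene of ciliopathy, and Lhfpl2 (−5.79 ± 0.55) were also among the 15 largest falls, as was Fdft1 (−5.89 ± 0.93).

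None of 32 tested cytosolic ribosomal protein genes passed, and their median change was 0.16. The shares called among glycolysis and oxidative phosphorylation genes were near that of all genes. Of 19 glycolysis genes, 1 rose and 1 fell: Pfkfb3, whose product makes an activator of glycolysis, stood at ranks 210 and 212 after R837 and at 6172 in 1 of the untreated lists (5.09 ± 0.69), and Pkm, the pyruvate kinase gene, changed by −3.63 ± 0.78, a call lost without R837 replicate 1 or untreated replicate 2. Of 22 oxidative phosphorylation genes 3 fell, Cyc1 (−1.61), Cox5b (−1.18) and Cox4i1 (−0.82), and with 1 rank per gene none of 15 tested did. Cyc1 and Cox5b also lost the call without untreated replicate 2. Of 11 sterol genes 1 fell, Fdft1, and of 16 cell cycle genes 1 fell, Fzr1, both on shared summits. Of all genes tested, 9.73% fell.

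A smaller share of summits lay near gene starts in both R837 libraries. Of the summits in the shortened lists, 53.1% and 35.2% lay within 1 kb of a gene start after R837, against 65.5% and 68.5% in untreated cells. The means were 44.1% ± 12.6 after R837 and 67.0% ± 2.13 in untreated cells (SD, n = 2 each), a difference of −22.9 percentage points with p = 0.333 by a two-sided exact permutation test, again the smallest possible. The difference was −13.9 points without R837 replicate 2 and −31.8 without R837 replicate 1. The share in the rest of genes was 33.5% and 48.7% after R837, against 20.5% and 18.5% in untreated cells. Both R837 libraries lay outside the untreated range, but R837 replicate 1 lay nearer to it than replicate 2. With the lists as deposited, the shares near starts were 45.2% and 34.2% after R837 and 44.1% and 45.0% in untreated cells, so the groups overlapped. Among the 2091 genes with a listed start and a summit in all 4 shortened lists, the best summit lay near the start in 82.6% and 76.3% after R837, against 83.6% and 85.3% in untreated cells, a difference of −4.97 points (exact permutation, p = 0.333) that was −1.11 without R837 replicate 2 and −8.13 without R837 replicate 1.

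**Figure D4:**
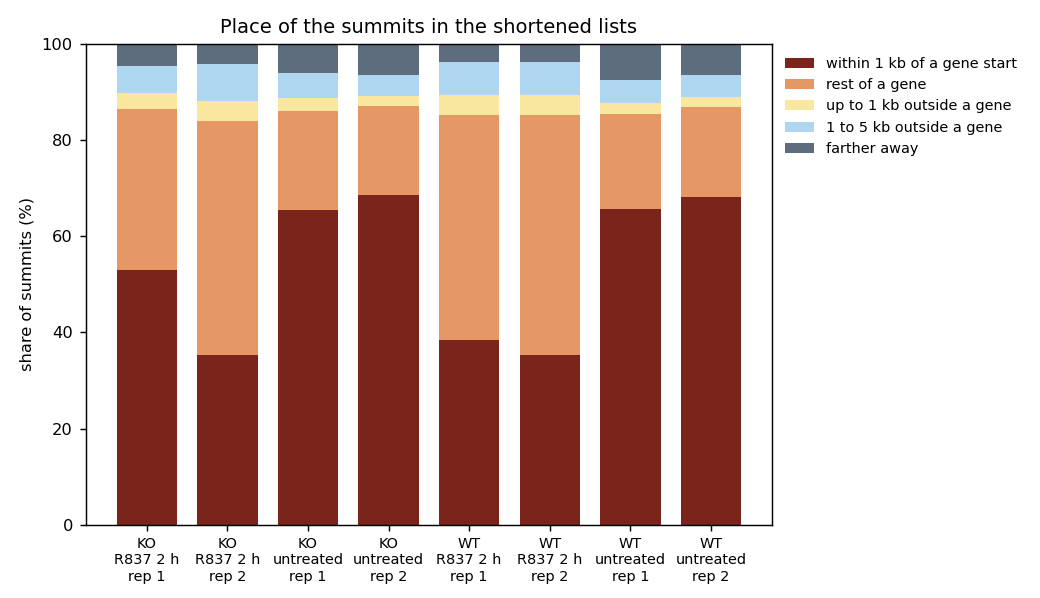
Share of the summits of each shortened list (%) by place, for KO with R837 2 h, KO untreated, WT with R837 2 h and WT untreated, with 2 replicates each. The share within 1 kb of a gene start is 53.1% and 35.2% in KO after R837 and 65.5% and 68.5% in KO untreated cells, and the rest of genes takes up most of the difference.

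Of 4665 summits found in both shortened R837 lists within 500 bp, 1760 (37.7%) had no summit of either shortened untreated list within 1 kb. Shortening kept scores down to 13.9 and 10.2 in the R837 lists and down to 19.4 and 21.4 in the untreated lists. A summit counted as gained can therefore still be present in a deposited untreated list. Of these 1760, 68.3% lay in gene bodies and 11.6% within 1 kb of a start, against 35.9% and 49.4% of all 4665. Conversely, of 6017 summits found in both shortened untreated lists, 1993 (33.1%) had none in the shortened R837 lists. Of those 1993, 60.5% lay near a start, against 74.3% of all 6017. The summits gained after R837 lay in 536 genes, several of which carried long runs of them. Zeb2, a zinc-finger transcription factor gene, held 44, Nfkb1 39, the neuropilin gene Nrp2 35, Adgre1 26, the actin-bundling gene Lcp1 25 and the adhesion receptor gene Cd44 24. These 6 genes were taken by that count, after it was seen.

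The runs were visible in the number of summits per gene in the shortened lists. Nfkb1 held 46 and 98 summits after R837 and none in the shortened untreated lists. Adgre1 held 51 and 42 after R837, against 1 and 1 in untreated cells. Cflar held 31 and 32 after R837, against 2 and 2 in untreated cells. Nfkb1 and Adgre1 had been taken for their gained summits, which by definition had no summit of the shortened untreated lists nearby, and Cflar held 18. A gap between the groups in these counts therefore follows from that definition. Tnip1, an A20-binding protein gene, held 36 and 44 after R837, against 2 and 1, and Msr1 held 23 and 34, against none. Pde4b held 22 and 24 and Nlrp3 12 and 12, with none in untreated cells for either. Nfkbia is a short gene and held 2 and 2 summits after R837, against 3 and 3 in untreated cells.

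For 52 of the 2091 genes the best summit lay within 1 kb of the start in both untreated lists and farther away in both R837 lists, and for 15 the reverse held. Of the 52 genes 9 rose, 1 fell and 42 were not called. The best Cflar summit lay 15567 and 15889 bp from the start after R837, against 68 and 206 bp in untreated cells. Gadd45b, a stress-response gene, had its best summit 2200 and 2413 bp away after R837, against 17 and 17 bp, and rose by 3.04 (adjusted p = 0.0259). Il4ra, the IL-4 receptor gene, had it 27604 and 28161 bp away after R837, against 178 and 29 bp, and rose by 3.13. Actg1, a cytoplasmic actin gene, showed the same move at similar ranks, 121 and 74 after R837 and 161 and 97 in untreated cells, with distances of 3122 and 3272 bp after R837 and 172 and 120 bp in untreated cells. These genes were picked from the 52 after their values were seen.

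WT macrophages were used to test whether this response depended on the genotype. In WT at 2 h against WT untreated, 299 genes rose (3.53%) and 1111 fell (13.1%). The rises shared by both genotypes numbered 171, which is 76.7% of the KO rises and 57.2% of the WT rises, and the shared falls 406, which is 49.2% of the KO falls and 36.5% of the WT falls. Of the 223 KO rises, 210 had the same sign in WT, and of the 825 KO falls, 771 did. The median change in WT over all genes tested was −0.42, so a negative sign in WT was common among uncalled genes too. The changes in KO and WT correlated at 0.77 (Pearson r) over all genes tested, so the shared signs are not particular to the called genes. Socs3 changed by 10.1 in WT, Nfkbia by 8.42, Tnf by 6.82, Ctsd by −8.69 and Zfp36l2 by −8.71, each in the direction seen in KO.

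The difference of the responses passed for 8 genes, 0.0943% of those tested, 5 higher (0.059%) and 3 lower (0.0354%) in KO, and 625 genes had an unadjusted p under 0.05. All 8 had an adjusted p of 0.0495 and lay low in the lists. For Arhgef17, both KO groups had no summit, while WT stood at ranks 1818 and 1842 after R837 and had none in untreated cells, a difference of −2.20 ± 0.35 (SE, log2). For Scarb1, a receptor of high-density lipoprotein, no R837 list of either genotype held a summit, and KO untreated stood at none and 7038, against 2007 and 2435 in WT untreated cells, a difference of 1.80 ± 0.30. Ndufc2, a subunit gene of respiratory complex I, was in no R837 list and in no shortened WT untreated list, and stood at ranks 3636 and 3905 in KO untreated cells, a difference of −1.16 ± 0.17. For Scarb1 and Ndufc2, as for Tlk1 and Rnf26 among the 8, the difference lay in the untreated cells. No call remained with 1 rank per gene, with the 5000 best summits, with the lists as deposited or when only the untreated and 2 h libraries were fitted. Among the large KO changes, Dusp2 changed by 6.92 in KO and 3.26 in WT, and Fzr1 by −7.44 in KO and −4.0 in WT, without passing the test of the difference.

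**Figure D5:**
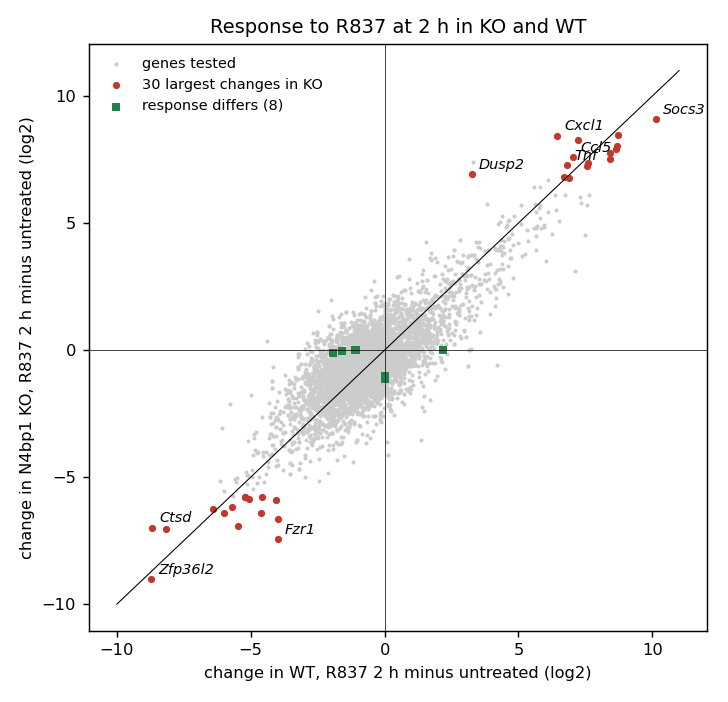
Change in rank score after 2 h of R837 in KO (vertical axis) and in WT (horizontal axis), log2, for the 8481 genes tested, with the 30 largest KO changes in red and the 8 genes whose responses differed as green squares. The red points follow the diagonal, and the green squares lie near one of the zero lines.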

How the data were processed

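Polymerase II libraries were sequenced as 75 nt single-end reads, per the labels' protocols. GSNAP, MACS2 and the GRCm38 build are named, without their roles, per the submitters' processing notes; versions, thresholds, controls and depth scaling are not given in the sources used here. The deposited score of each summit is a −log10 p-value or −log10 q-value (which of them is not stated), called per library, and was used only to rank summits. Lists were shortened to the best 8394 summits with ties at the limit kept, since ranks from lists of unequal length cannot be compared, and a summit counted for every gene region it lay in. Genes came from RefSeq (GRCm38.p6), and 17492 of 21887 had a listed start; for the others either gene end stood in for it.

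Rank scores of all 16 libraries were fitted in limma 3.58.1 (R 4.3.3), with a mean for each of 8 groups, a trend of the variance on the mean score and Benjamini-Hochberg adjustment over the 8481 genes, threshold 0.05. Errors after changes are its SE. Other tables used Python 3.11.15. No set test was run. Members and gene lists were chosen with earlier results of these data known. Named genes were N4bp1, Tlr7, the 15 largest rises and falls that did not overlap between groups, up to 4 called members of each list with any called the other way, and the 10 smallest p-values of the genotype difference; others named were chosen after their values were seen, and 1 gene that the rule names is not reported here. The alternatives were other list lengths and gene regions, gene ranks, summit counts, filters, fits and leaving out each replicate.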

Additional observations from a re-analysis of the deposited data

Results flagged for a closer look

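The response to R837 at 2 h differed between KO and WT macrophages, by a test of the difference itself in limma, for 8 genes, each with an adjusted p of 0.0495. No gene passed under 9 alternatives, and 3 to 304 passed when 1 library was left out. The response in KO minus that in WT was −2.20 for Arhgef17, −1.16 for Ndufc2 and −1.01 for Tlk1, a nuclear kinase gene, on the log2 scale. It was 1.80 for Scarb1, 1.56 for Rnf26, a ubiquitin ligase gene, and 1.07 for Tex261. It was 1.12 for Pdcd4, an inhibitor of translation, and 1.12 for Gm30990, which rest on 1 shared summit and are not separate results. Tlk1 stood at ranks 4380 and 3991 in KO untreated libraries and was in none of the other shortened lists of the 4 groups. Rnf26 was in no R837 list of either genotype, and stood at ranks 8194 and 8064 in KO untreated and 2351 and 3231 in WT untreated libraries. For Tlk1 and Rnf26, as for Scarb1 and Ndufc2, the difference therefore lay in the untreated cells. The mean KO score of Tex261 was 0.012 after R837 and 0 in untreated cells, and that of Pdcd4 and of Gm30990 was 0 and 0.003. The differences of these genes therefore came from the WT groups. In the gene region widened to 3 kb, Arhgef17 gave 0.065.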

How the results depend on the processing

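The count of 1048 changed genes moved by over 1.5 times under 5 alternatives. It was 2957 with the lists as deposited, 480 with 1 rank per gene, 669 when only the 8 untreated and 2 h libraries were fitted and 0 when only the 4 compared libraries were (1868 at an unadjusted p under 0.05 in limma). Leaving out 1 library gave 575 to 1128, and the value without KO R837 2 h replicate 2, 575, was the fifth. No pairing by replicate number was found (deviations correlated at −0.046), and the replicate block gave 988.

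The count of 8 genes whose response differed was 0 with the 5000 best summits, the length of the shortest compared list, the lists as deposited, 3 kb regions, 1 rank per gene, a summit in at least 4 lists, the 8 libraries alone, no trend or the replicate block. It was 28 with the gene span only, 169 with summits counted and 47 with no filter, and 3 to 304 when 1 library was left out.

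Directions turned for 7 single results. With summits counted, Nfkbia gave −0.42, Ctsd 1.0, Ctsl 0.29, Ctsb 1.08 and Csf1r 0.46, with the gene span only Mrpl39 gave −0.094, and with 3 kb regions the Arhgef17 difference gave 0.065. The medians of chemokines, NF-kB inhibitors and inflammatory effectors stayed above 0 and those of lysosomal and lipid-associated genes below 0 under every alternative run. Alternatives that changed only the fit, or left out WT libraries, could not move these medians. The causes were not tested. The lists give no read depth, so a gene with no summit was not detected and is not shown to lack polymerase.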
